A study of Coilia nasus with 12 samples.

Results

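MANF, SDF2L1 and hyou1 are genes of the endoplasmic reticulum (ER) stress response, and their RNA was followed across the stomachs of 12 individual Coilia nasus, an anchovy that migrates between sea and river. Each gene name was carried by 1 unigene, an assembled transcript cluster, so the set was 3 of the 63567 unigenes in the deposited expression table. All unigenes with these names, in upper or lower case, were taken. The genes had been picked from earlier results of the same 12 libraries, as ER genes whose levels differed between the feeding groups. Their difference between the groups is therefore given as a description, with no test.

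The labels place 6 fish in the food intake group and 6 in the no food intake group, with stomach as the tissue and gastric mucosa as the source. RNA of each fish made 1 library, so the 6 libraries of a group are separate animals. Strain, age, sex, meal and time since feeding are not given in the labels used here. Levels are TPM, which share a fixed total in each library, are set per length and so allow genes to be compared, but keep no record of read depth. The precision of a single value is therefore known only from the spread between fish. In bulk stomach RNA, fewer cells of a type and less RNA per cell cannot be told apart.

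Proteins bound for secretion or for membranes are folded in the ER by chaperones, of which BiP (gene HSPA5) is the central one. When unfolded proteins gather there, the sensors IRE1, PERK and ATF6 start the unfolded protein response (UPR), which raises the genes of folding, quality control and degradation. In mammals MANF is a small soluble ER protein that binds BiP and can be secreted, SDF2L1 works with the cochaperone ERdj3 (gene DNAJB11) at BiP, and HYOU1 is a large HSP70 relative that exchanges the nucleotide of BiP. All 3 are known targets of the UPR in mammals. The gastric gland is a secretory tissue that makes large amounts of pepsinogen through the ER.

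The deposited annotation bore out the names in most respects. Each of the 3 unigenes had its best match in the Atlantic herring, Clupea harengus, to a protein of the same name. MANF (TRINITY_DN27233_c2_g4, 1463 bases, 2 assembled transcripts) carried the Armet domain of its family. SDF2L1 (TRINITY_DN31650_c4_g9, 1318 bases, 1 transcript) carried the MIR domain of its family, but its KEGG entry was the ubiquitin ligase RNF13. The hyou1 unigene (TRINITY_DN27690_c2_g3, 3420 bases, 2 transcripts) carried an HSP70 domain. A further 10 unigenes had the KEGG entry of HYOU1 under other names, 8 of them named Phldb, and were not counted as members.

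All 3 genes were higher in most food intake fish than in fish without food, and 1 food intake fish went against this with the lowest level of all 12 libraries. MANF had 41.64, 10.95, 13.64, 7.32, 15.19 and 0.51 TPM in food intake 1 to 6, against 1.42, 2.17, 0.77, 0.97, 3.26 and 4.17 TPM in no food intake 1 to 6. Food intake 1 to 5 each lay above every no food intake library, and food intake 6 lay below all of them. The group means were 14.9 ± 14.1 TPM with food intake and 2.13 ± 1.35 TPM without (SD, n = 6 each), and the medians were 12.3 and 1.795 TPM. The fold change on the log2(TPM + 1) scale, which understates the change of low genes, was 1.89 (SE 0.58). Every fold change given below is a log2 fold change, on this scale unless another is named.

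SDF2L1 followed nearly the same order. It had 39.63, 12.98, 18.65, 4.43, 14.18 and 0.47 TPM in food intake 1 to 6, against 0.83, 4.33, 0.77, 2.09, 3.23 and 4.07 TPM in no food intake 1 to 6. Again food intake 1 to 5 were above every no food intake library, but food intake 4 cleared no food intake 2 by only a small margin (4.43 against 4.33 TPM). The means were 15.1 ± 13.8 and 2.55 ± 1.57 TPM (log2 fold change 1.70, SE 0.61).

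The hyou1 unigene was the least abundant of the set. It had 32.32, 6.74, 5.57, 1.75, 7.47 and 0.11 TPM in food intake 1 to 6, against 0.73, 1.20, 0.29, 0.34, 1.64 and 2.15 TPM in no food intake 1 to 6. Here 4 food intake libraries were above every no food intake library, because food intake 4 lay between no food intake 6 and no food intake 5. The means were 8.99 ± 11.8 and 1.06 ± 0.744 TPM (log2 fold change 1.61, SE 0.58).

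Among all 40142 unigenes tested, 1.41% had 5 or more food intake libraries above every no food intake library, and 0.0249% had all 6. A fold change above 0 was found in 46% of them. The members were chosen on this contrast, so nothing is read from their place in these shares.

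**Figure D1:**
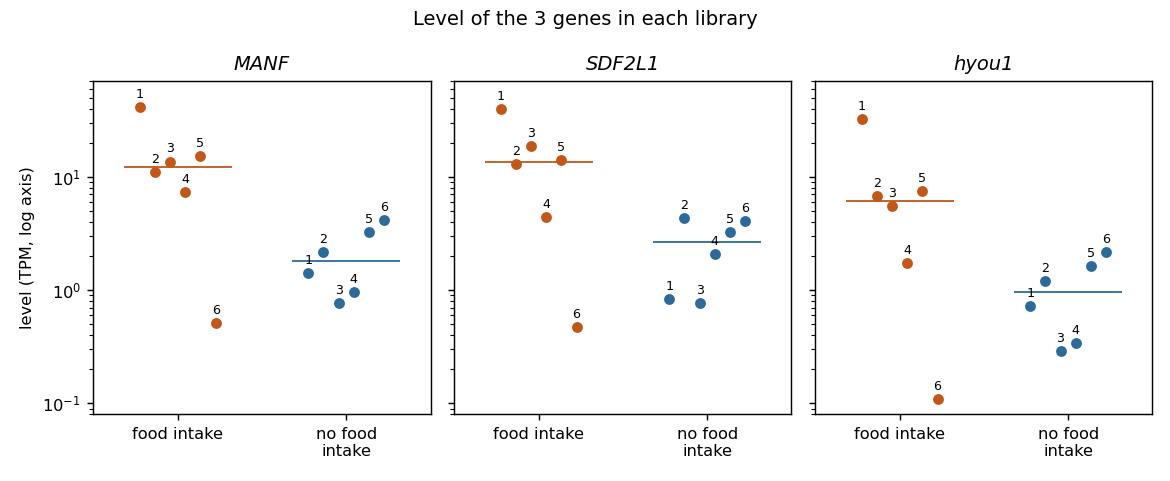
Level of MANF, SDF2L1 and hyou1 in each library, in TPM on a log axis, with food intake left of no food intake. Each point is 1 fish with its library number, and the line is the group median. Food intake 1 is the highest and food intake 6 the lowest point in all 3 panels.

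The high values of all 3 genes were carried first by 1 fish. Food intake 1 was the highest of 12 libraries for each gene, at 2.74 times the next food intake library for MANF, 2.12 times for SDF2L1 and 4.33 times for hyou1. Food intake 5, 3 and 2 took ranks 2 to 4, in an order that differed between the genes. Food intake 4 stood at rank 5 for MANF and SDF2L1 and at rank 6 for hyou1. At the low end, food intake 6 was at rank 12 and no food intake 3 at rank 11 for each gene. Within the no food intake group the highest levels were in no food intake 6, except for SDF2L1, where no food intake 2 was higher.

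From the lowest to the highest of 12 libraries MANF spanned 81.6-fold, SDF2L1 84.3-fold and hyou1 294-fold. The low end of each span is food intake 6, at 0.51, 0.47 and 0.11 TPM, where values below 1 TPM are of unknown precision. The next lowest library, no food intake 3, had 0.77, 0.77 and 0.29 TPM. Within no food intake alone the spans were 5.42-fold, 5.62-fold and 7.41-fold. The log2 fold change between groups depended on which fish were counted. Without food intake 1 it was 1.49 for MANF, 1.31 for SDF2L1 and 1.11 for hyou1, and without food intake 6 it was 2.45, 2.27 and 2.09. These were the lowest and highest values when each of the 12 libraries was left out in turn.

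The fish with the lowest levels, food intake 6 and no food intake 3, also stood apart in other measures. A group of 7 rRNA-like unigenes, all at 1000 TPM or more on average and tracking a unigene named ART2 at r of 0.95 or more, took 64.2% of the TPM of food intake 6. Their share was 4.34% to 16.4% in food intake 1 to 5 and 6.12% to 26.9% in no food intake 1 to 6. No food intake 3 had the highest share of its group at 26.9%, but no food intake 5 came close at 26.5% and ranked 7 or 8 for the 3 genes. With them removed and TPM rescaled, MANF had 49.8, 13.0, 16.0, 7.65, 16.3 and 1.43 TPM in food intake 1 to 6, against 1.51, 2.51, 1.05, 1.09, 4.43 and 4.44 TPM in no food intake 1 to 6. On that scale no food intake 3 and 4 lay below food intake 6 for MANF. For SDF2L1, no food intake 1 and 3 lay below food intake 6 (0.884 and 1.05 TPM against 1.31 TPM). For hyou1, food intake 6 remained the lowest at 0.308 TPM. SDF2L1 in food intake 4 then had 4.63 TPM, below the 5.00 TPM of no food intake 2. The rescaled log2 fold changes were 1.99, 1.79 and 1.67 for MANF, SDF2L1 and hyou1. Over the 12 libraries the rescaled levels ran from 1.05 to 49.8 TPM for MANF, 0.884 to 47.4 TPM for SDF2L1 and 0.308 to 38.7 TPM for hyou1.

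Food intake 6 and no food intake 3 also had the highest summed levels of red blood cell markers, 628.51 and 744.39 TPM. These markers summed to 83.75 to 304.93 TPM in food intake 1 to 5 and to 85.56 to 185.01 TPM in the other no food intake fish. Smooth muscle markers summed to 27319.7 TPM in no food intake 3, against 3001.45 to 7135.13 TPM in food intake libraries. Gastric gland markers, the pepsinogens, chitinase and proton pump subunits, ranged from 108904 to 372235 TPM with food intake and from 58292.9 to 367856 TPM without, with food intake 6 and no food intake 3 lowest in their groups. All these sums are TPM before rescaling, where rRNA-like unigenes took 64.2% of food intake 6. Whether food intake 6 stays lowest in gastric gland markers after rescaling was not tested. All 5 gastric gland symbols were found, so the labelled tissue carried its defining markers. The part of these measures in the low levels of the 3 genes was not tested. With both of these fish left out, the log2 fold changes were 2.31 for MANF, 2.10 for SDF2L1 and 1.97 for hyou1.

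The libraries also fell into 2 sets by 9 unigenes with a chicken mitochondrial best match, which were detected in food intake 1, 5 and 6 with no food intake 1, 2, 4 and 6 and were at 0 in the remaining 5. These sets are not named in the labels and were treated as batches. In the first, with 3 food intake and 4 no food intake fish, MANF averaged 19.1 against 2.18 TPM (log2 fold change 1.77, SE 0.80). In the second, with 3 and 2 fish, it averaged 10.6 against 2.02 TPM (2.05, SE 0.51). SDF2L1 had log2 fold changes of 1.46 (SE 0.81) and 2.06 (SE 0.71) in the 2 batches, and hyou1 had 1.76 (SE 0.79) and 1.49 (SE 0.63). In the second batch the food intake fish lay above both no food intake fish for each gene.

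The levels of the 3 genes moved together among fish of the same group, where the difference between groups plays no part. The permutation tests of these pairs ask only whether r differs from 0, on TPM before rescaling. Many other unigenes varied with the same fish, so the p-values do not mark a link particular to these genes. Pearson r of log2(TPM + 1) among the 6 food intake fish was 0.978 for MANF and SDF2L1 (exact permutation over pairings, two-sided, p = 0.00417, adjusted p = 0.00833 over 6 tests). For MANF and hyou1 it was 0.958 (exact permutation p = 0.00417, adjusted p = 0.00833), and for SDF2L1 and hyou1 0.962 (exact permutation p = 0.00694, adjusted p = 0.0104). The Spearman correlation was 0.943, 0.943 and 0.829 for these pairs, with adjusted exact permutation p of 0.0333, 0.0333 and 0.0875. Food intake 1 and food intake 6 sit at the ends of each relation. With the 2 fish farthest from the median of the first gene left out, r over the other 4 was 0.918, 0.898 and 0.902. With 5 fish r stayed at 0.930 or more, but the calls of all 3 pairs were lost without food intake 1, 4 or 6, and those of the pairs with hyou1 also without food intake 5 (adjusted exact permutation p up to 0.0917).

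Among the 6 fish without food, where levels were low and close together, MANF and hyou1 had r of 0.995 (exact permutation p = 0.00139, the smallest that 720 pairings can give, adjusted p = 0.00833) and the same rank order in all 6 fish (Spearman correlation 1.0, adjusted exact permutation p = 0.0167). Without the 2 farthest fish r was 0.989. SDF2L1 was less closely tied to the others in this group, with r of 0.783 to MANF (exact permutation p = 0.0833) and 0.771 to hyou1 (exact permutation p = 0.0917), and both had an adjusted p of 0.0917. The Spearman correlation of both pairs was 0.771 (adjusted exact permutation p = 0.103), and r without the 2 farthest fish was 0.586 and 0.805. Whether the r of a pair differs between the groups was not tested. A batch held at most 4 fish of a group, too few for a correlation within it.

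**Figure D2:**
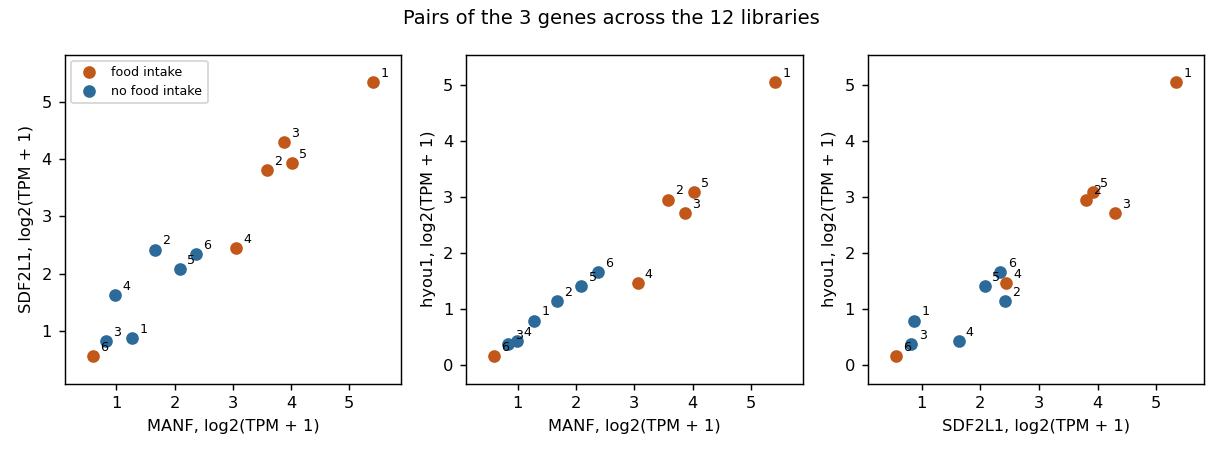
Each pair of MANF, SDF2L1 and hyou1 in log2(TPM + 1), with 1 point per fish, its library number, and color for food intake and no food intake. The food intake fish run from number 6 at the lower left to number 1 at the upper right in each panel, and the no food intake fish lie in between.

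Over all 12 fish the ratios of the genes spanned less than their levels. MANF over SDF2L1 ranged from 0.731 to 1.65 with food intake (median 1.06) and from 0.464 to 1.71 without (median 1.0), a span of 3.69-fold over all 12 fish. MANF over hyou1 ranged from 1.29 to 4.64 (median 2.24) and from 1.81 to 2.85 (median 1.97), a span of 3.6-fold. SDF2L1 over hyou1 ranged from 1.23 to 4.27 (median 2.23) and from 1.14 to 6.15 (median 2.31), a span of 5.41-fold. Within no food intake alone, SDF2L1 over hyou1 spanned 5.41-fold and MANF over SDF2L1 3.69-fold, beside level spans of 5.42-fold to 7.41-fold, and MANF over hyou1 spanned 1.58-fold. MANF over hyou1 was lowest in food intake 1, the fish with the highest levels, and highest in food intake 6, the fish with the lowest.

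With group means subtracted, r over the 12 fish was 0.95 for MANF and SDF2L1, 0.961 for MANF and hyou1 and 0.935 for SDF2L1 and hyou1. Without food intake 6 these were 0.875, 0.952 and 0.877. Many other unigenes varied with the same fish. The median of the mean r with the 3 genes was 0.222 over 40139 other tested unigenes, and 4.36% of them reached 0.8 and 0.964% reached 0.9. Without food intake 6 the median was -0.03, with 365 unigenes at 0.8 or more. After rescaling without rRNA-like unigenes it was -0.05. Food intake 6 was the lowest library for 35.6% of tested unigenes, and food intake 1 was the highest for 16.2%, with 8.39% showing both. All correlations of this kind share the same libraries and the same TPM totals, and they are given as a description.

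Of 9910 gene names, the 10 most like the 3 genes in the mean r over the 12 fish included 6 known from the ER or from transport into and out of it. The share of such genes among the 9910 names was not counted, so nothing is read from the 6. SERP2, of a family of small proteins at the translocon, came first at 0.979. It had 158.78, 41.23, 41.28, 17.79, 52.26 and 3.01 TPM in food intake 1 to 6, against 5.40, 11.34, 5.36, 6.47, 11.45 and 16.51 TPM in no food intake 1 to 6. Its food intake 1 to 5 lay above every no food intake library, as for MANF (log2 fold change 1.74, SE 0.63, limma adjusted p = 0.774).

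Dnajb11, the BiP cochaperone to which SDF2L1 binds in mammals, had r of 0.965, after CPSF3 (0.974) and Sars (0.969). It had 16.75, 4.57, 4.55, 1.69, 4.30 and 0.05 TPM in food intake 1 to 6, against 0.26, 1.59, 0.13, 0.25, 1.74 and 1.23 TPM in no food intake 1 to 6 (log2 fold change 1.36, SE 0.51). As for hyou1, food intake 4 was below 1 no food intake library, here no food intake 5. The receptor that returns escaped ER proteins, kdelr2 (r 0.962), had 61.78 TPM in food intake 1 and 1.49 TPM in food intake 6, against 2.94 to 7.86 TPM in the no food intake libraries.

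Other ER genes of the 10 were MOGS, the glucosidase that first trims N-glycans (0.965), Dpm3, a subunit of the synthase that makes the dolichol mannose donor (0.960), and TEX261, an ER export factor by its yeast relative (0.963). The rest were the pre-mRNA endonuclease CPSF3, the seryl-tRNA synthetase Sars, the proteoglycan Spock3 (0.965) and the histone-binding protein rbbp4 (0.961). Without food intake 6 the mean r of the 10 genes lay between 0.918 and 0.961. Their fold changes were not alike. Sars had a log2 fold change of 1.29 and kdelr2 1.12, whereas Dpm3 had 0.38 and Spock3 0.47, with 29.07 TPM in food intake 1 and 2.90 TPM in food intake 6 against 6.43 to 10.69 TPM without food.

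**Figure D3:**
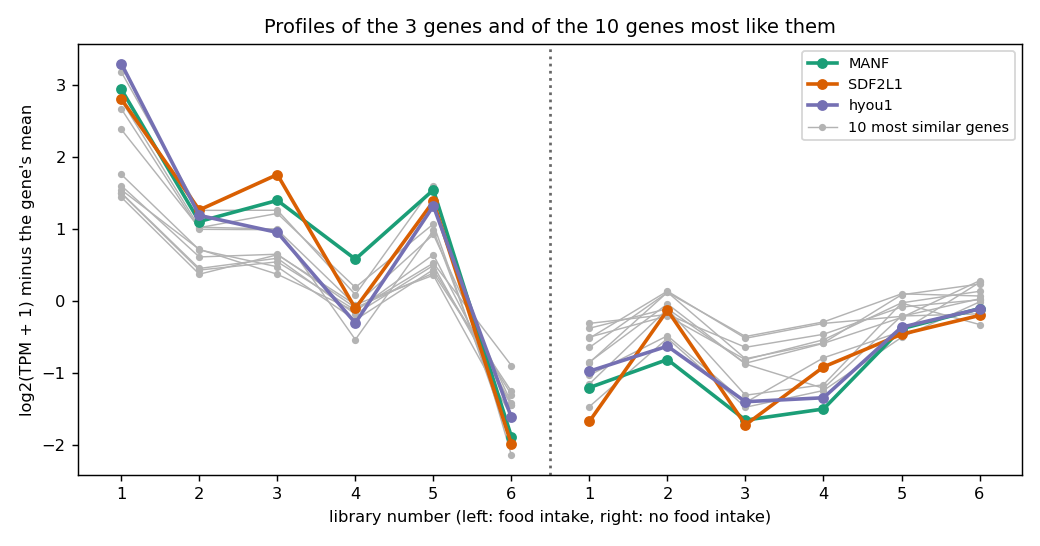
log2(TPM + 1) minus the mean of each gene over the 12 libraries, for MANF, SDF2L1 and hyou1 (colored) and the 10 genes most like them (grey), by library number with food intake left of no food intake. Lines only join the points of a gene. All 13 profiles peak in food intake 1 and drop in food intake 6.

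The wider pathway was described through lists of gene symbols, read against the limma test over all 40142 unigenes. At an adjusted p under 0.05 that test called 0 unigenes higher and 0 lower (0% each). Without adjustment, 997 unigenes were higher (2.48%) and 1521 lower (3.79%) at p under 0.05, and the median fold change over all unigenes was -0.04. The 6 ER and stress lists held 171 tested unigenes of 115 gene names, of 218 unigenes matched, and the 3 members are not among them. Of these, 137 had a fold change above 0, with a median of 0.38. The test called 0 of them at adjusted p under 0.05 (smallest adjusted p = 0.768), while 23 were higher and 0 lower at unadjusted p under 0.05. That count depended on which fish were included. With the cytosolic heat shock list added it was 25 higher. It was then 6 without food intake 1 and 88 without food intake 6. It was 8 to 14 without food intake 2, 3 or 5 or without no food intake 1, 2, 3 or 4. Over all 40142 unigenes the count higher moved too, from 997 to 671 without food intake 1 and 3355 without food intake 6. Because these genes vary with the same fish, they are not independent of each other or of the 3 members.

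BiP itself had the same high and low fish. The most abundant hspa5 unigene (834 bases) had 384.06, 67.49, 147.29, 101.74, 125.44 and 3.83 TPM in food intake 1 to 6, against 7.59, 26.84, 6.68, 39.83, 24.23 and 52.63 TPM in no food intake 1 to 6. Food intake 1 to 5 lay above every no food intake library and food intake 6 lay below all of them. The means were 138 ± 130.4 and 26.3 ± 18.0 TPM (log2 fold change 1.87, SE 0.80, limma adjusted p = 0.774). A longer HSPA5 unigene (1822 bases) had a fold change of 1.77, and whether reads were split between these unigenes is not known. A further tested HSPA5 unigene, at 223 bases with a mammalian best match, had a fold change of 0.50 (r 0.020). The 834-base unigene was less like the 3 members than Dnajb11, with a mean r of 0.873, and 0.692 without food intake 6. The 1822-base unigene had 0.833 and 0.578. A 744-base HSPA5 unigene did not pass the filter and averaged 5.37 TPM with food intake and 0.373 TPM without. It was highest in food intake 1 and lowest in no food intake 3. Its mean r was 0.883, and 0.886 without food intake 6.

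GRP94, the ER member of the HSP90 family (HSP90B1), averaged 196 ± 152 TPM with food intake and 53.2 ± 22.6 TPM without (log2 fold change 1.32, SE 0.69, r 0.924). A longer unigene, Hsp90b1 at 2149 bases, had a fold change of 1.75. The other 3 tested HSP90B1 unigenes, at 211 to 321 bases with mammalian best matches, had mean levels of 1.25 to 2.59 TPM with food intake and 1.27 to 2.515 TPM without, and fold changes of -0.11, -0.17 and -0.27. The lectin chaperone calreticulin, CALR, averaged 47.9 ± 39.6 and 13.2 ± 7.57 TPM (1.38, SE 0.58, r 0.927). Other tested CALR unigenes had fold changes of 1.39 and 1.56 with herring best matches and -0.20 with a chicken best match. The prolyl isomerase Fkbp11 averaged 108 ± 65.5 and 52.2 ± 17.9 TPM (0.75, SE 0.51, r 0.843). In the list of ER chaperones and cochaperones 28 of 36 tested unigenes had a fold change above 0, with a median of 0.47, and 10 were higher and 0 lower at unadjusted p under 0.05. With food intake 1 left out the list median was 0.30, with food intake 5 left out 0.32 and with food intake 6 left out 0.74. Summed over the list, food intake libraries had 141.9 to 1928.08 TPM (median 905) and no food intake libraries 226.69 to 424.86 TPM (median 352).

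Enzymes of disulfide formation had 14 of 17 unigenes above 0, a median of 0.55, and 3 higher and 0 lower at unadjusted p under 0.05. The most abundant was agr2, a disulfide isomerase of mucus-secreting cells, with 873 ± 601 TPM with food intake and 282 ± 154 TPM without (log2 fold change 1.22, SE 0.67, adjusted p = 0.803). PDIA4 averaged 23.0 ± 20.9 and 7.09 ± 3.14 TPM (1.18), PDIA5 17.3 ± 13.3 and 5.84 ± 2.55 TPM (1.20) and Txndc5 3.46 ± 4.03 and 0.653 ± 0.363 TPM (1.04). Another tested unigene named Txndc5, without a fish best match, had a fold change of -0.20 (r -0.68). P4HB, the founding protein disulfide isomerase, averaged 246 ± 121 and 179 ± 99.8 TPM (0.65) and had a low r of 0.428 with the 3 members. The ER peroxidase Prdx4 averaged 140.5 ± 39.7 and 148 ± 20.0 TPM (-0.12). The list median lay between 0.45, with food intake 2 left out, and 0.76, with food intake 6 left out.

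Translocation and N-glycosylation, the steps by which proteins enter the ER and gain their first sugars, had 36 of 41 unigenes above 0, a median of 0.55, and 5 higher and 0 lower at unadjusted p under 0.05. The signal peptidase subunits SPCS1 and spcs2 averaged 12.7 ± 7.95 against 4.23 ± 1.87 TPM (1.12) and 15.7 ± 12.2 against 5.07 ± 2.87 TPM (1.21). The oligosaccharyltransferase subunit ostc averaged 84.2 ± 49.0 against 34.5 ± 12.3 TPM (1.06). The most abundant members had smaller values. SEC61G, a subunit of the translocon whose best match here was a mammalian protein, averaged 358 ± 142 against 296 ± 66.4 TPM (0.13), SEC61B 181 ± 83.4 against 133 ± 29.7 TPM (0.27) and SSR3 191 ± 87.2 against 149.5 ± 75.6 TPM (0.38). Leaving out food intake 1 gave a list median of 0.35, and leaving out food intake 6 gave 0.84.

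ER-associated degradation, which extracts and destroys proteins that fail to fold, had 29 of 34 unigenes above 0, a median of 0.28, and 2 higher and 0 lower at unadjusted p under 0.05. These were the extraction motor vcp, at 19.5 ± 14.7 TPM with food intake and 7.16 ± 2.42 TPM without (1.01, r 0.940), and its ER membrane partner vimp, at 16.0 ± 7.60 and 7.61 ± 1.62 TPM (0.82). Other tested unigenes named VCP had fold changes of 0.32 and 0.07, with r of 0.031 and -0.06. DERL1, a channel component, averaged 13.1 ± 7.23 and 10.5 ± 2.56 TPM (0.12), yet its r with the members was 0.904. The most abundant herpud2 unigene averaged 13.4 ± 7.81 and 6.85 ± 3.02 TPM (0.77). Other tested unigenes of that name had fold changes of -0.33, -0.08 and 0.005. The median was 0.15 when food intake 1 was left out and was 0.46 when food intake 6 was.

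Sensors and transcription factors of the UPR had few values far from 0. Of 31 unigenes 19 had a fold change above 0, with a median of 0.11, and at unadjusted p under 0.05 there were 0 higher and 0 lower. Xbp1, the factor that IRE1 activates by splicing, had total levels of 162 ± 68.0 TPM with food intake and 124 ± 36.5 TPM without (0.25, SE 0.43). Spliced and unspliced forms of Xbp1 are not separated in these values. Its highest food intake library was number 4, at 240.3 TPM, and its r with the 3 members was 0.668 with all fish and 0.026 without food intake 6. Atf6 averaged 7.35 ± 5.32 and 3.21 ± 1.19 TPM (0.76, r 0.866), and the PERK gene Eif2ak3 15.8 ± 8.40 and 8.77 ± 5.78 TPM (0.82, r 0.631). Another unigene named ATF6 had a fold change of -0.07 (r 0.435). Other tested Eif2ak3 unigenes had fold changes of 0.43 and 0.35 (r 0.654 and 0.664). Atf6b averaged 4.805 ± 2.27 and 4.92 ± 1.72 TPM (-0.09, r 0.649, and 0.207 without food intake 6). A unigene named Ern1, an IRE1-type sensor, averaged 107 ± 46.7 and 92.6 ± 33.6 TPM (0.11), and atf4 124 ± 38.2 and 133 ± 33.8 TPM (-0.14). Other tested Ern1 unigenes had fold changes of 0.50, -0.04 and 0.02. Other tested atf4 unigenes had 0.41, 0.06 and -0.15. The membrane-bound factor creb3l3a averaged 2.12 ± 0.870 and 4.035 ± 2.07 TPM (-0.64, limma adjusted p = 0.803), and the stress-induced NUPR1 401 ± 293 and 309 ± 192 TPM (0.22). A unigene named CREB3L3 had a fold change of 0.32 (r 0.905, and 0.774 without food intake 6). Another Nupr1 unigene had -0.13. Leaving out food intake 6, food intake 3 or no food intake 4 gave list medians of 0.25, 0.17 and 0.21, and leaving out food intake 1 or no food intake 2 or 3 gave 0.05, 0.06 and 0.05.

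Target genes of ATF4, the arm of the response that follows PERK, had 11 of 12 unigenes above 0, with a median of 0.46, and 3 higher and 0 lower at unadjusted p under 0.05. The largest fold change among the named pathway genes was that of chac1, which degrades glutathione. It had 89.88, 144.91, 43.46, 44.48, 140.04 and 3.54 TPM in food intake 1 to 6, against 3.10, 4.56, 8.22, 36.64, 7.59 and 11.94 TPM in no food intake 1 to 6 (log2 fold change 2.38, SE 0.72, unadjusted p = 0.00404, limma adjusted p = 0.768). Food intake 1 to 5 all lay above every no food intake library, but the highest was food intake 2 rather than 1. Its r with the 3 members was 0.643, and 0.125 without food intake 6. The serine and folate enzymes PHGDH and MTHFD2 averaged 3.535 ± 2.52 against 1.19 ± 0.572 TPM (0.87) and 2.535 ± 1.74 against 0.495 ± 0.659 TPM (1.14). The transcription factor CEBPB averaged 13.2 ± 10.2 and 21.3 ± 22.7 TPM (-0.34). Medians of this list ran from 0.33, with food intake 5 left out, to 0.77, with food intake 6 left out.

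Heat shock proteins of the cytosol, answer to a different factor, HSF1. Of 44 unigenes 20 had a fold change above 0, and the median was -0.13, with 2 higher and 1 lower at unadjusted p under 0.05. That median turned positive, at 0.01, after rescaling and in the first batch, at 0.02 in the second, and at 0.05 with unigenes of no fish best match left out. With each library left out it ranged from -0.20 (food intake 5) to -0.04 (food intake 4 or no food intake 6). The most abundant members had lower means with food intake. Hspa8, the constitutive HSP70, whose best match here was a mammalian protein, averaged 683 ± 379.6 and 960.5 ± 409 TPM (-0.58). Another tested HSPA8 unigene had a fold change of -0.36. A 363-base unigene of HSP90AB1 averaged 568 ± 390.1 and 940.0 ± 614 TPM (-0.81, limma adjusted p = 0.826). Other tested HSP90AB1 unigenes had fold changes of -1.28, -0.64, -0.54, -0.51, -0.24, 0.13, 0.41 and 0.73. For HSP90AA1, the most abundant unigene averaged 10.6 ± 11.1 and 2.90 ± 2.0 TPM (1.29). Other tested unigenes of that name had fold changes of 0.78, -0.04 and -0.55. HSPA4, which exchanges the nucleotide of cytosolic HSP70 as HYOU1 does for BiP, averaged 10.2 ± 8.57 and 4.26 ± 0.959 TPM (0.77), with r of 0.915 to the members. The difference between this list and the ER lists was not tested.

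**Figure D4:**
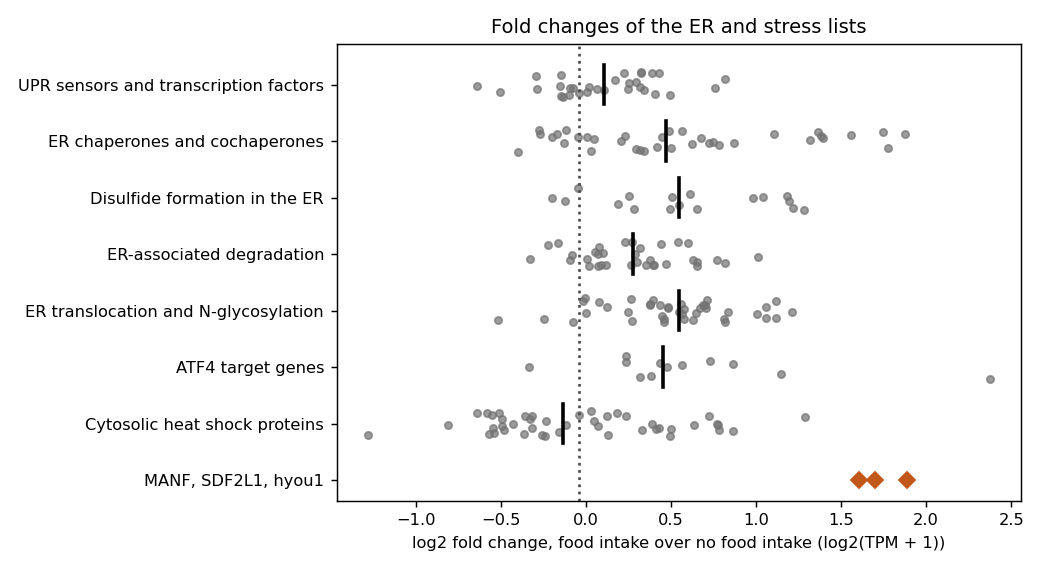
log2 fold change of each tested unigene (grey points), food intake over no food intake on log2(TPM + 1), for the ER and stress lists, with list medians as black bars and the median of all tested unigenes as a dotted line. The diamonds are MANF, SDF2L1 and hyou1 at 1.89, 1.70 and 1.61. The medians of 5 of the 7 lists lie between 0.28 and 0.55, the UPR sensors are at 0.11 and the cytosolic heat shock proteins at -0.13.

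Over all tested unigenes the median fold change was -0.19 in the first batch and 0.18 in the second. ER chaperones had medians of 0.61 and 0.47, disulfide enzymes 0.45 and 0.69, translocation and N-glycosylation 0.40 and 0.71, degradation 0.27 and 0.29 and ATF4 targets 0.47 in both. The UPR sensors had -0.05 and 0.37.

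Co-variation with MANF, SDF2L1 and hyou1 was highest in the lists of the secretory path. The median of the mean r was 0.861 for translocation and N-glycosylation, with 26 of 41 unigenes at 0.8 or more. It was 0.829 for disulfide enzymes (11 of 17), 0.725 for ER chaperones (16 of 36) and 0.692 for degradation (9 of 34). ATF4 targets stood at 0.566 (0 of 12), UPR sensors at 0.465 (2 of 31) and cytosolic heat shock proteins at 0.397 (7 of 44). Over all tested unigenes the median was 0.222. Without food intake 6 the medians were lower in each list, at 0.710, 0.649, 0.574, 0.448, 0.125, 0.207 and 0.201 in the same order, against -0.03 over all.

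Marker lists of cell types had medians below those of the 4 secretory path lists. The median r was 0.432 for gastric gland markers, 0.175 for mucous surface markers, -0.19 for smooth muscle, -0.11 for fibroblast and matrix, -0.42 for red blood cells and -0.43 for pancreatic-type acinar markers. Part of these unigenes had no fish best match. With fish best matches alone the medians were 0.434, 0.343, -0.22, -0.33, -0.50 and -0.49 in the same order. That left 6 of 11 mucous surface unigenes and 18 of 34 fibroblast and matrix unigenes. None of the cell type lists had a unigene at 0.8 or more, except smooth muscle with 1 of 39. Without food intake 6 the medians were 0.150 for gastric gland, 0.186 for mucous surface, -0.16 for smooth muscle, -0.05 for fibroblast and matrix, -0.11 for red blood cells and -0.04 for acinar markers. Immune markers other than those of B cells had a median of 0.217 (6 unigenes) and liver markers 0.132 (8 unigenes). Without food intake 6 these were -0.15 and 0.422. The liver value was then above those of the ATF4 targets, the UPR sensors and the cytosolic heat shock proteins. Of the 8 liver unigenes only 2, fabp1 and Apob, had a fish best match, with a median of 0.112 over the 12 libraries. Without food intake 6 these 2 had -0.29 and -0.30, so the value of 0.422 was carried by unigenes without a fish best match. Plasma cells are secretory cells rich in ER, but 11 of the 13 symbols of their list are not analysed here and 1 unigene of it was tested, IGLL5, at 0.39 to 2.72 TPM with food intake and 0.81 to 4.53 TPM without. PRDM1, which did not pass the filter, averaged 1.97 ± 1.45 TPM with food intake and 0.387 ± 0.438 TPM without, with 4 food intake libraries above every no food intake library. It was highest in food intake 4 (4.05 TPM) and had 0.63 TPM in food intake 1, where the 3 genes were highest. Its mean r with the 3 genes was 0.243, and -0.51 without food intake 6. The 4 matched unigenes summed to 1.13 to 11.16 TPM (median 5.97) and 1.32 to 6.37 TPM (median 2.91). The part of plasma cells in the levels of the 3 genes was not tested.

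**Figure D5:**
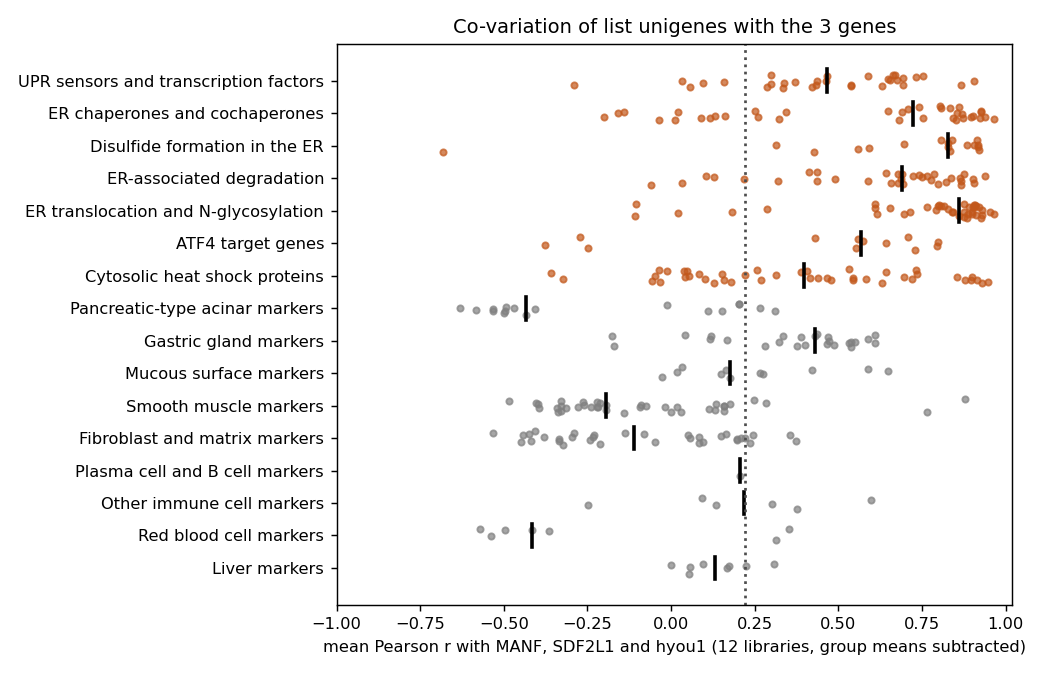
Mean Pearson r of each unigene with MANF, SDF2L1 and hyou1 over 12 libraries after group means were subtracted, for the ER and stress lists (orange) and the cell type marker lists (grey), with list medians as black bars and the median of all tested unigenes, 0.222, as a dotted line. The 4 lists of the secretory path have medians from 0.692 to 0.861, and the marker lists have medians from -0.43 to 0.432.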

How the data were processed

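The unit of the table the authors deposited was taken to be TPM, because its 12 columns total 984119 to 992092 each and the file header names no unit. TPM keeps no read depth. The submitters' processing notes name cutadapt and FastQC, without versions. The identifiers are those of a Trinity assembly, per the file headers, and the quantifier is not given in the sources used here. All 12 columns matched a label (0 unmatched).

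limma (3.58.1, R 4.3.3) with a trend in the prior variance was fitted to log2(TPM + 1) on the feeding group. It covered the 40142 of 63567 unigenes that reached 1 TPM in 6 or more libraries, with Benjamini-Hochberg adjustment over all of them (threshold 0.05). All 3 members passed that filter. The fit was tested on simulated data. Correlations used Python 3.11.15 with scipy 1.17.1, and figures matplotlib 3.10.9. The members and gene lists were chosen with earlier results of these data known. Named genes were, for each pathway list, the 3 most abundant and the 3 with the smallest p, BiP, GRP94 and the UPR sensors and factors whatever their values, the 10 most like the members, and the 2 most abundant of each marker list. Symbols of the lists with no unigene, among them CDNF, SDF2 and CRELD2, are not analysed here.

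Alternatives were quantile normalization, removal of rRNA-like unigenes with rescaling, a pseudocount of 0.1, no filter, a minimum of 5 TPM, limma without trend, a replicate block, each batch alone or batch as a covariate, unigenes of a name summed or only the most abundant kept, each library left out, and food intake 6 and no food intake 3 together. Leaving out unigenes without a fish best match, and the group-centred correlation with and without food intake 6, were chosen after seeing the data.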

Additional observations from a re-analysis of the deposited data

Results flagged for a closer look

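Within each group of 6 fish, the gap of the highest or lowest library to its neighbor was compared with the range of the group (Dixon's criterion) for 70 genes, in TPM. Of 140 groups 27 met it. The criterion is set so that chance gives about 1 in 20 among normally distributed values, which TPM are not, and genes that vary together are not separate cases. On log2(TPM + 1), a scale tried after seeing the data, 11 groups met it, 6 of them through food intake 6 and 0 through food intake 1, and none of the 3 members did in either group.

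Food intake 1 stood apart at the top of its group for 7 genes, 2 of them members. These were MANF (41.64 TPM), hyou1 (32.32 TPM), SERP2 (158.78 TPM), Dnajb11 (16.75 TPM), kdelr2 (61.78 TPM), PDIA4 (62.32 TPM) and HSPA4 (26.58 TPM). SDF2L1 did not meet the criterion in either group. Food intake 6 stood apart at the bottom for atf4 (52.24 TPM), SEC61G (86.94 TPM) and Slc3a2 (2.30 TPM), an amino acid transporter subunit. It stood apart at the top for the protease Ctrb1 (111.25 TPM), for hbb (235.49 TPM), a hemoglobin chain, and for the share of rRNA-like unigenes (64.2%). The TPM of food intake 6 checked here were not rescaled for that share.

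No food intake 3 stood apart at the top of its group for the small heat shock protein HSPB1 (1519.52 TPM), for Tagln (9025.17 TPM) and ACTA2 (5106.73 TPM) of smooth muscle, for COL1A1 (846.50 TPM) and for the hemoglobin chains hbb (298.44 TPM) and hba (270.94 TPM). No food intake 4 did so for NUPR1 (693.24 TPM), chac1 (36.64 TPM) and CEBPB (65.10 TPM), and food intake 4 for CEBPB (33.26 TPM). No food intake 6 did so for MTHFD2 (1.81 TPM), HSP90AB1 (2138.18 TPM) and Ctrb1 (26.10 TPM), and no food intake 1 for PGA (53858.1 TPM) and fabp1 (763.26 TPM). The source of these single values was not tested.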

How the results depend on the processing

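Of 370 values recomputed under alternatives, 24 moved and 11 lost their call. Those that moved were counts of list unigenes at unadjusted p under 0.05 (15 higher, 8 lower) and 1 median of the disulfide list. List medians that changed sign are not among the 24. Medians of 2 lists changed sign, that of cytosolic heat shock proteins from -0.13 to 0.01 after rescaling, 0.01 and 0.02 within the batches and 0.05 with fish best matches alone, and that of UPR sensors from 0.11 to -0.05 in the first batch. The log2 fold changes of MANF, SDF2L1 and hyou1 were 1.78, 1.58 and 1.51 with quantile normalization and 2.20, 1.95 and 2.05 with a pseudocount of 0.1. With each library left out they ranged from 1.49 to 2.45, 1.31 to 2.27 and 1.11 to 2.09. The median of the disulfide list was 1.18 with a minimum of 5 TPM, which leaves fewer unigenes. Among food intake fish with 1 library left out, r ranged from 0.930 to 0.992 (MANF and SDF2L1), 0.948 to 0.982 (MANF and hyou1) and 0.944 to 0.986 (SDF2L1 and hyou1). With 5 fish the smallest exact p is 0.00833. Among fish without food the ranges were 0.674 to 0.851, 0.992 to 0.997 and 0.659 to 0.868. List unigenes at unadjusted p under 0.05, cytosolic heat shock proteins included, were 25 higher and 1 lower and ranged from 6 to 88 higher with each library left out. Over all unigenes that split was 997 higher and 1521 lower, and 2286 and 1020 after rescaling (median fold change 0.06 against -0.04). It was 671 and 1127 without food intake 1 and 3355 and 1156 without food intake 6. At adjusted p under 0.05, 1 unigene was higher after rescaling, 1 higher without no food intake 4 and 1 higher and 1 lower with quantile normalization. Same-numbered fish had correlations of -0.10 to 0.11 over all tested unigenes, and 0 of 6 food intake fish matched its own number best. With 6 pairs of whole profiles this check cannot exclude a pairing by number. With the replicate block the members' fold changes stayed at 1.89, 1.70 and 1.61, and the test called 0 list unigenes. Unknown read depth limits the reading of values below 1 TPM, which include food intake 6 for all 3 genes.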
